A study of Mus musculus with 4 samples.

Results

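Mature migratory dendritic cells (DCs) of the inflamed mouse colon were the cells described here, and 221 of them were found among 43432 kept cells. They were selected on measured values, as unique molecular identifiers (UMIs, each standing for 1 captured transcript). Kept cells had 200 genes or more, with mitochondrial genes taking less than 20% of UMIs. A mature DC had at least 3 UMIs of Fscn1 and Ccl22 together, at least 1 of Ccr7, at least 20 of the MHC class II genes H2-Aa, H2-Ab1 and H2-Eb1 together, and none of Cd3e, Cd3d (T cells), Cd79a (B cells), Ngp (neutrophils) or C1qa (macrophages). The levels of these genes in the chosen cells are therefore a description and not a finding.

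Single-cell libraries (10x Genomics) were made from bead-enriched CD45-positive leukocytes of the colon lamina propria, in 4 samples from mice aged 10 weeks by their labels, while the study's text gives another age. All 4 samples carried the label DSS, dextran sulfate sodium, which is given in drinking water and injures the colon epithelium. The study raised C57BL/6 mice that lacked the aryl hydrocarbon receptor in all tissues (AhR-null, the allele Ahr tm1Bra) beside wild-type littermates and pooled several mice per library, but the labels do not give the genotype of a sample. The samples are therefore numbered 1 to 4 as in their labels, levels are given per sample, and no groups were compared or tested. Counts and shares of cells holding UMIs of a gene pool the 4 samples unless a sample is named. No untreated sample was analysed here. The DCs were not sorted.

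DCs take up antigen in a tissue, mature on contact with microbial or inflammatory signals, and then leave through the lymph for the draining lymph node, where they show antigen to T cells. Maturation brings CCR7, the receptor for the chemokines that guide cells to the lymph node, and fascin (Fscn1), which bundles actin in the long processes of mature DCs. It also brings a programme that holds both signals that activate T cells and signals that restrain them. Conventional DCs fall into cDC1, specialised in cross-presentation to CD8 T cells, and cDC2, which mainly serve CD4 T cells, and both can enter the mature state.

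The bases upstream of Fscn1, of Ccl22 (a chemokine that draws regulatory T cells) and of Il4i1 (an amino acid oxidase of mature DCs whose products can activate AhR) are shown because the first pair chose the cells and the last marked them without being used by the selection. They are the 250 bases before the RefSeq start site on GRCm38.p6, all on the plus strand, at chr5:142960105-142960354 for Fscn1, chr8:94745434-94745683 for Ccl22 and chr7:44836038-44836287 for Il4i1. Capitals mark GCGTG, the core of the xenobiotic response element bound by AhR.
Fscn1: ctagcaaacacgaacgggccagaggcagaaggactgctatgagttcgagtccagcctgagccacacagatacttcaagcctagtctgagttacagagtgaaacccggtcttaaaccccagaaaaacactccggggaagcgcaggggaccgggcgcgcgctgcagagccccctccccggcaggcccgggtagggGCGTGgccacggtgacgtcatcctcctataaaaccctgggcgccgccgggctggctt
Ccl22: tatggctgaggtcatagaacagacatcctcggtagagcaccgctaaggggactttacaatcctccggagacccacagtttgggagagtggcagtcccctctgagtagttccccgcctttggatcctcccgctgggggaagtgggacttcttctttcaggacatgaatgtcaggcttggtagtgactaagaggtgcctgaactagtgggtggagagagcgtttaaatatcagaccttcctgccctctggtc
Il4i1: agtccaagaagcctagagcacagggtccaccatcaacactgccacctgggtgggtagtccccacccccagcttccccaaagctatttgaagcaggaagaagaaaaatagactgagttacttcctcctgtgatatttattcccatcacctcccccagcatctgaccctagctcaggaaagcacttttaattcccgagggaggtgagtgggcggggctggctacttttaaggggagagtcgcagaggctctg
The core was searched on both strands and occurred 1 time, in the Fscn1 window, with its first base 57 bases before the start site. It was found in the same window of 30.9% of the 27025 genes with a RefSeq promoter. A kappa-B motif, GGGANNTTCC, searched in the same way, was found in none of these windows and in 1.36% of all genes. A match of letters is not a binding site.

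The mature DCs numbered 42, 20, 132 and 27 in samples 1 to 4. Sample 1 held them at 0.382% of its kept cells, with an exact 95% interval (binomial) of 0.276 to 0.516. The share was 0.151% (0.0924 to 0.234) for sample 2, 1.18% (0.990 to 1.40) for sample 3 and 0.335% (0.221 to 0.487) for sample 4. Sample 3 was the highest, and its interval did not overlap that of any other sample. The values depend on the selection, since with 1 UMI of an excluded gene allowed the share was 0.303% in sample 2 and 1.44% in sample 3, and with at least 50 MHC class II UMIs it was 0.681% in sample 3. The same order was not seen for cells gated as conventional DCs by lineage genes. Cells with at least 2 UMIs of Xcr1 and Clec9a (cDC1-gated) numbered 42, 20, 37 and 16, and cells with Flt3 and at least 2 UMIs of Cd209a, Mgl2 and Clec10a (cDC2-gated) numbered 43, 23, 28 and 21. Both gates also required the MHC class II genes and left out the cells chosen as mature. Neither gate selects immature cells as such. Levels are in CPM, UMIs of a gene per 1000000 UMIs summed over the class in a sample. The sum of 5 mature DC markers, led by Ccr7, was 223 to 442 CPM in cDC2-gated cells. It was 95.6, 67.9, 292 and 145 CPM in cDC1-gated cells of samples 1 to 4, and 3726 to 5134 CPM in the mature DCs. The selection used Ccr7, Fscn1 and Ccl22 of these markers and the gates left out the chosen cells, so the gap follows from the selection. Of the cells in the 3 classes together, mature DCs made up 33.1%, 31.7%, 67.0% and 42.2% in samples 1 to 4. Intervals cover counting error only.

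**Figure D1:**
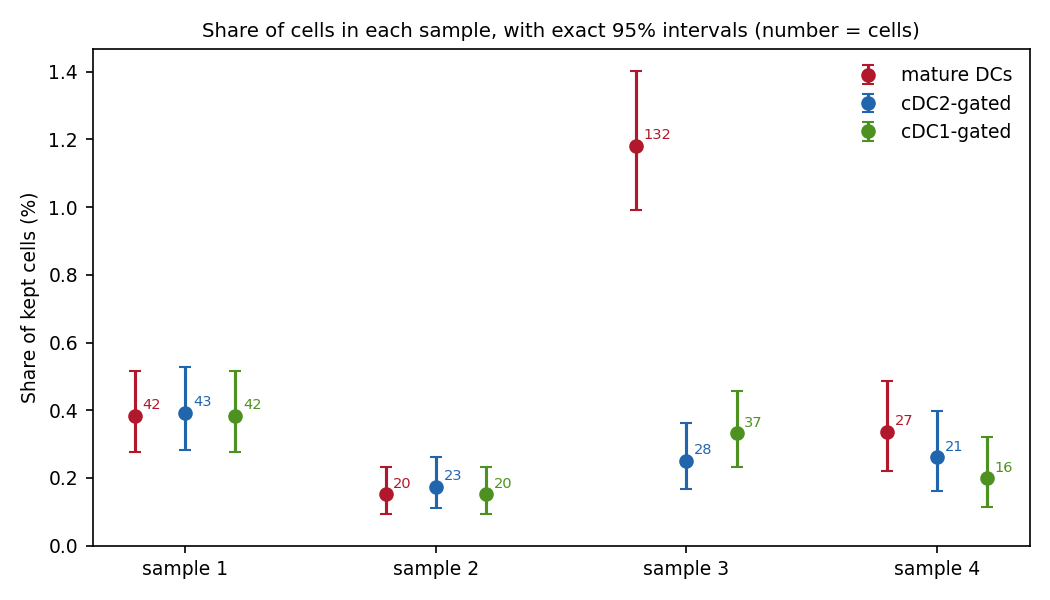
Share of kept cells (%, vertical axis) that were mature DCs, cDC2-gated cells or cDC1-gated cells in each of the 4 samples. Points are shares, bars are exact 95% binomial intervals and the numbers are cells. The mature DCs of sample 3, at 1.18%, stand above every other point.

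The last condition of the selection removed most of the cells that met the others. Of 663 cells with the mature DC genes, 442 held at least 1 UMI of a T cell, B cell, neutrophil or macrophage gene and were left out, 61, 153, 168 and 60 of them in samples 1 to 4. Median UMI counts of the removed cells were 20040, 19076, 23578 and 21859, against 13712, 8216, 12807 and 12327 in the mature DCs. The share of candidates removed was therefore largest in sample 2, where 20 of 173 were kept. Single UMIs of such genes also come from free RNA, and 67 of the removed cells held only 1; the part of doublets and of free RNA in the loss was not tested. Among the 221 cells, 29 had no Fscn1 UMI and 42 no Ccl22 UMI. Just inside the limit of 3 lay 10 cells with exactly 3 UMIs of the pair, and just outside it lay 16 cells with 2.

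Depth and cell mixtures were checked first, since the mature DCs were deep cells. Their median UMI count was 1.84, 1.33, 1.98 and 2.02 times that of all kept cells in samples 1 to 4. A doublet caller placed 2, 0, 18 and 0 of them among its highest scores. Of all kept cells it placed 966 of 10986, 1399 of 13223, 997 of 11164 and 520 of 8059 there. These totals were fixed in advance by the number of kept cells. Sample 3 held nearly all of the high-scoring mature DCs, and also 132 of the 221 mature DCs. Its share of mature DCs without high-scoring cells was 1.12%. A lower score does not show that a cell is no doublet. Sets of samples shared 23 to 49 cell barcodes per pair, at most 0.423% of the smaller sample, and no mature DC barcode occurred in more than 1 sample. The 6 neutrophil markers summed to 599, 227, 2335 and 1878 CPM in the mature DCs. Without the high-scoring cells the sum was 375 in sample 1 and 1011 in sample 3. S100a9 was the most abundant of them and Ngp was at 0 by selection. In sample 4 a single cell with 31100 UMIs held 93.7% of the S100a9 UMIs, although its doublet score was not among the highest. The part of neutrophil RNA in the results below was not tested.

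The label was checked against markers that the selection did not use. The shares of cells below pool the samples. Sample 3 gave 132 of 221 mature DCs, 28 of 115 cDC2-gated and 37 of 115 cDC1-gated cells. Il4i1 was found in 177 of 221 mature DCs (80.1%), in 24 of 115 cDC2-gated cells (20.9%) and in 2 of 115 cDC1-gated cells (1.74%). Neutrophils, which should lack it, gave 1.48% at median depths of 4637 to 7249 UMIs per sample. With every cell thinned to 3000 UMIs, the shares were 51.6% of 219 mature DCs, 10.6% of 113 cDC2-gated, 0 of 114 cDC1-gated and 0.514% of 5637 neutrophil-gated cells deep enough to thin. Cacnb3, a calcium channel subunit and the other marker outside the selection, was found in 180 of 221 mature DCs, in 3.48% of cDC2-gated, in 13.0% of cDC1-gated and in 1.74% of neutrophil-gated cells. Zbtb46, a transcription factor of the conventional DC lineage, was at 246, 416, 357 and 368 CPM in the mature DCs of samples 1 to 4. Its levels were 77.7, 78.4, 157 and 172 CPM in cDC2-gated and 37.0, 19.98, 65.9 and 135 CPM in cDC1-gated cells, below the mature DCs in every sample. The call against cDC2-gated cells was lost with at least 50 MHC class II UMIs, with 1 UMI of an excluded gene allowed and with CPM averaged over cells. Of 9 genes of DC identity tested against cDC2-gated cells, Zbtb46 and Batf3 were higher and Itgax lower, and of 10 against cDC1-gated cells Zbtb46 was higher and Cd24a lower, with list medians of 0.36 and -0.12 on the log2 scale. The Batf3 and Cd24a calls were each lost under 4 alternatives. As to other lineages, 5 T cell markers summed to at most 24.5 CPM, 5 B cell markers to at most 32.9 CPM and 8 macrophage markers to at most 135 CPM in any sample, with Cd3e, Cd3d, Cd79a and C1qa at 0 by selection. Monocyte markers were not low, at 1596, 265, 993 and 1018 CPM with Plac8 the most abundant, of which 1 cell of sample 4 held 52.4%, and cDC2-gated cells held more, at 3064, 1993, 2003 and 1476 CPM. Plasma cell markers, led by Igha, summed to 119, 670, 153 and 107 CPM in the mature DCs and to 162, 751, 203 and 145 CPM in cDC2-gated cells, highest in sample 2 in both. The plasmacytoid DC list reached 944, 448, 915 and 670 CPM through Tcf4, with its defining gene Siglech at 0. The 4 mast cell markers summed to 175.5, 135, 135 and 126 CPM, with Kit the most abundant and Cpa3 and Tpsb2 at 0, against 166, 132, 106 and 161 CPM in cDC2-gated cells. The innate lymphoid and NK cell list, led by Il7r, summed to 171, 146, 199 and 143 CPM, against 200.5, 99.05, 215 and 140.3 CPM in cDC2-gated cells. Fibroblast, endothelial and epithelial markers summed to at most 10.0, 73.7 and 30.2 CPM.

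Genes were then compared with cDC2-gated and cDC1-gated cells in the same sample. A gene was called higher or lower where its CPM plus 5 differed at least 2-fold in each of the 4 samples, a rule of size with no test, since cells of a sample are not replicates. Adding 5 makes the ratios of low genes smaller than they are. Against cDC2-gated cells, 278 of 7872 genes were higher (3.53%) and 156 lower (1.98%). Against cDC1-gated cells, 401 of 7974 were higher (5.03%) and 244 lower (3.06%). Counts for a gene list are to be read against these shares. Both comparisons use the same mature DCs. As a check added after seeing the data, the mature DC with most UMIs of a gene was left out of each sample. Of the named genes called higher, 53 of 63 against cDC2-gated and 68 of 84 against cDC1-gated cells kept the call. Those that lost it included Ccl17, Zbtb46, Batf3, Nlrc5, Tnfrsf4, Ikzf4, Tuba1a and Cd70 against cDC2-gated cells, and Cd274, Socs1, Il1rn, Irf1, Tlr1, Cxcr5, Myo1e and Actn1 against cDC1-gated cells. The median log2 ratio of all genes was -0.05 against cDC2-gated and 0.00 against cDC1-gated cells.

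Of 30 genes listed as a mature DC programme, 19 were higher than in cDC2-gated cells and none was lower, with a median log2 ratio of 2.27. Against cDC1-gated cells 23 were higher and none lower, with a median of 2.80. The list was drawn up from genes known for this state and earlier results of these data were known, so the counts are no independent evidence. Il4i1 stood at 342, 492, 363 and 299 CPM in samples 1 to 4, against 26.4, 49.5, 48.4 and 10.4 CPM in cDC2-gated and 0, 0, 9.89 and 0 CPM in cDC1-gated cells. The groups did not overlap. Its log2 ratio against cDC2-gated cells ran from 2.78 to 4.30. Cacnb3 was at 295, 238, 388 and 255 CPM, against 3.11, 0, 27.2 and 0 CPM in cDC2-gated cells. Socs2, an inhibitor of cytokine receptor signalling, was at 409, 384, 389 and 250 CPM, against 35.8, 8.25, 15.1 and 0 CPM. Fabp5, a carrier of fatty acids and retinoic acid, was at 1592, 2296, 1254 and 1847 CPM, against 197, 86.7, 324 and 281 CPM in cDC2-gated and 6.37, 28.0, 42.9 and 10.6 CPM in cDC1-gated cells. Marcksl1 and Marcks, substrates of protein kinase C that bind actin, the tetraspanin Cd63 and the Rab GTPase activator Tbc1d4 were higher in both comparisons. Apol7c and Clu were not called, and Dusp5 was close to equal, with log2 ratios of -0.18 to -0.02 against cDC2-gated cells.

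**Figure D2:**
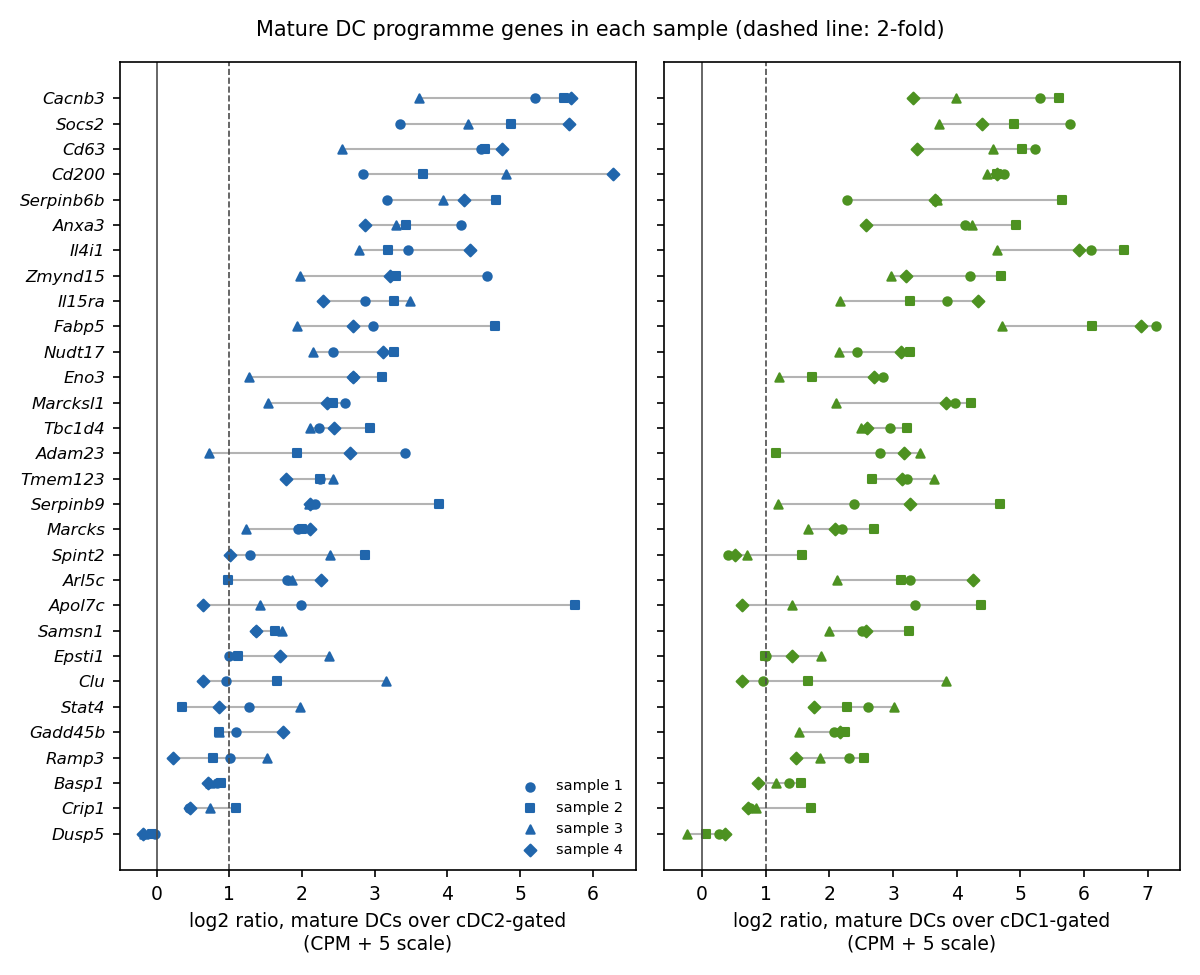
Log2 ratio of CPM plus 5 (horizontal axes) in mature DCs over cDC2-gated cells (left) and cDC1-gated cells (right) for the 30 genes of the mature DC programme list. Each symbol is 1 sample, the grey line spans the 4 samples and the dashed line marks 2-fold. Il4i1 and Cacnb3 lie beyond 2-fold in every sample on both sides, while Dusp5 lies at about 0.

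Genes were next ranked by the lowest of their 4 ratios, leaving out the genes used by the selection or the gates. Over cDC2-gated cells several of the leading genes are not classical DC markers. The highest was Strip2, a component of a phosphatase complex that acts on cell shape, at 331, 340, 509 and 371 CPM against 7.77, 0, 15.1 and 5.20 CPM. Tmcc3, a membrane protein of the endoplasmic reticulum, was at 901, 1275, 1336 and 1106 CPM against 21.8, 49.5, 84.7 and 52.0 CPM. Dscaml1, an adhesion molecule known from neurons, was at 87.8, 184, 233 and 98.8 CPM and had UMIs in cDC2-gated cells of sample 3 alone. Single cells held 36 of 56, 17 of 34 and 21 of 36 Dscaml1 UMIs in samples 1, 2 and 4, and without them the levels were 31.8, 97.25 and 42.9 CPM. All 3 genes were also higher than in cDC1-gated cells. The surface protease Mmp25, the adenylate cyclase Adcy6, the secreted BMP modulator Bmper and Anxa3, a membrane-binding annexin, were higher in both comparisons too. By the same ranking over cDC1-gated cells the highest was Adgrg6, an adhesion G protein-coupled receptor, at 520, 1626, 848 and 974 CPM against 1.27, 0, 4.94 and 3.55 CPM. Nrp2, a semaphorin and VEGF coreceptor carried by mature DCs, was at 314, 459, 627 and 793 CPM against 3.82, 15.98, 18.1 and 10.6 CPM.

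Of 14 measured costimulatory and T cell contact genes, 6 were higher than in cDC2-gated cells, 9 were higher than in cDC1-gated cells and none was lower in either. Their median log2 ratios were 1.61 and 1.89. Cd80, the ligand of CD28 and CTLA-4, was at 570, 756, 684 and 711 CPM, against 253, 281, 254 and 234 CPM in cDC2-gated and 162, 168, 150 and 277 CPM in cDC1-gated cells. Its call against cDC2-gated cells was lost with at least 5 UMIs of Fscn1 and Ccl22 or with 1 UMI of an excluded gene allowed. Cd86, its partner ligand, was not called, at 1437, 1048, 1264 and 1452 CPM against 1141, 1490, 893 and 1538 CPM in cDC2-gated cells, and the groups overlapped. Tnfsf4, the OX40 ligand, was at 169, 551, 265 and 351 CPM against 3.11, 28.9, 33.3 and 62.4 CPM. In sample 2, 1 cell held 74.5% of the Tnfsf4 UMIs, and the level was 153 CPM without it. Tnfsf9 (4-1BB ligand), Cd70, Dll4 (a Notch ligand) and Tnfrsf9 were higher in both comparisons, with Cd70 at only 16.2 to 37.9 CPM, and its calls were lost under 5 alternatives against cDC2-gated and under 2 against cDC1-gated cells. Cd40, the receptor for the T cell ligand CD154, was at 194, 114, 248 and 146 CPM. It was higher than in cDC1-gated cells, whereas against cDC2-gated cells its ratio in sample 2 missed 2-fold.

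Of 13 genes in a list named for T cell restraint, 6 were higher than in cDC2-gated cells and none lower, with a median log2 ratio of 1.09. Against cDC1-gated cells 7 were higher and 1 lower, with a median of 1.40. Cd274, which encodes PD-L1, was at 1502, 1610, 1720 and 1825 CPM, against 619, 487, 578 and 572 CPM in cDC2-gated and 747, 340, 539 and 564 CPM in cDC1-gated cells. The lowest mature sample was above the highest sample of either gate. A Cd274 UMI was found in 217 of 221 mature DCs, 93 of 115 cDC2-gated, 96 of 115 cDC1-gated and 5054 of 6743 neutrophil-gated cells, and in 93.6%, 59.3%, 62.3% and 62.6% after thinning to 3000 UMIs. No class that should lack the gene was counted. Its log2 ratio over cDC1-gated cells in sample 1 was 1.003, at the 2-fold limit, and the call was lost without the cell that held most and when cells with 2 UMIs of Fscn1 and Ccl22 were let in. Cd200, the ligand of an inhibitory myeloid receptor, was at 232, 319, 473 and 382 CPM against 28.0, 20.6, 12.1 and 0 CPM in cDC2-gated cells. Socs2, Fas, Socs1 and Tnfrsf4 were the other genes higher in both comparisons, and Havcr2, which encodes TIM-3, was lower than in cDC1-gated cells. Socs2 and Socs1 inhibit cytokine signalling inside the cell that expresses them, and Fas is a death receptor. Their levels are therefore no measure of restraint on T cells. Cd200 and Socs2 were also counted above in the mature DC programme. Tnfrsf4 encodes OX40, a costimulatory receptor, and without it 5 of 12 listed genes were higher than in cDC2-gated and 6 of 12 higher than in cDC1-gated cells. Socs1, at 19.2 to 43.5 CPM, lost both calls under 5 alternatives each, and Tnfrsf4 lost its call against cDC2-gated cells under 1. Pdcd1lg2, which encodes PD-L2, was at 182, 178, 114 and 121 CPM and was not called. Ido1, the tryptophan-degrading enzyme, was at 3.13, 0, 1.11 and 5.49 CPM and fell below the limit for testing.

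Of 12 cytokine genes tested, 1 was higher than in cDC2-gated cells, and of 11 tested against cDC1-gated cells 3 were higher, beside 3.53% and 5.03% of all genes. None was lower, and the list medians were 0.08 and 0.86 on the log2 scale. The first was Il12b, the subunit shared by interleukin-12 and interleukin-23, at 121, 1237, 155 and 357 CPM against 0, 33.0, 0 and 0 CPM in cDC2-gated and 40.8, 0, 226 and 0 CPM in cDC1-gated cells. It was carried by few cells. In all, 42 of 221 mature DCs held an Il12b UMI (19.0%), and 1 cell of sample 2 held 215 of that sample's 229 UMIs, without which its level was 84.4 CPM. Without the cell that held most, Il12b was at 99.6 CPM in sample 3 and 203 CPM in sample 4. The share was 0.87% in cDC2-gated and 7.83% in cDC1-gated cells, and 0.163% in neutrophil-gated cells. Ebi3, a subunit of interleukin-27, Il6 and Il1rn, the interleukin-1 receptor antagonist, were called higher against cDC1-gated cells and not against cDC2-gated cells. Single cells held 30 of 38, 64 of 118 and 21 of 39 Il6 UMIs in samples 1, 3 and 4, where its levels were 59.6, 65.7 and 107 CPM with these cells and 12.8, 30.4 and 51.4 CPM without them. The cell of sample 3 had a high doublet score. The Il6 call was lost under 2 alternatives and the Il1rn call under 1. Il12a and Il23a, the partner subunits of Il12b, and Il27, the partner of Ebi3, fell below the limit for testing in both comparisons. Il1b was at 1302, 902, 1033 and 988 CPM and was not called in either comparison.

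Of 12 chemokine genes, Ccl17 and Ccl5 were higher than in cDC2-gated cells and Ccl9 was lower. Ccl17, which shares its receptor CCR4 with Ccl22, was at 141, 59.4, 83.6 and 32.9 CPM against 49.8, 0, 15.1 and 0 CPM. Only 48 of 221 mature DCs (21.7%) held a Ccl17 UMI, against 0.237% of neutrophil-gated cells, and without the cell that held most its levels in samples 1, 2 and 4 were 83.3, 28.1 and 11.8 CPM, which ended the call in sample 1. Ccl5, a chemokine that attracts T cells, was at 834, 330, 1082 and 453 CPM against 109, 124, 269 and 41.6 CPM, and was higher than in cDC1-gated cells too. Without the cell that held most, its ratio to cDC2-gated cells in sample 2 lay at the 2-fold limit. Against cDC1-gated cells Cxcl16, the ligand of CXCR6, was the other gene of 12 tested that was higher. List medians were 0.53 against cDC2-gated and 0.485 against cDC1-gated cells on the log2 scale. The Cxcl16 call was lost under 2 alternatives. Ccl19, a ligand of CCR7, had no UMI in any of the mature DCs.

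Among chemokine receptors and adhesion genes, 5 of 14 tested against cDC2-gated cells were lower and 1 higher, with a median log2 ratio of -1.54. Ccr2, which draws monocytes and DC precursors, was at 34.5, 5.40, 29.0 and 10.98 CPM against 214, 206, 106 and 109 CPM. Itgb7, the chain shared by the gut integrins alpha-4 beta-7 and alpha-E beta-7, was at 25.1, 27.0, 14.5 and 13.7 CPM against 135, 149, 93.8 and 114 CPM. Ccr9 (gut homing) and Cx3cr1 were also among the lower genes, and Plxnc1, a semaphorin receptor, was the one higher. The Cx3cr1 call was lost under 5 alternatives and the Ccr9 call under 3. Itgb7, Ccr9 and Itgae, the alpha-E chain, were lower than in cDC1-gated cells as well, out of 13 tested, where Cxcr5 and Plxnc1 were higher and the median was 0.24. There the Cxcr5 call was lost under 4 alternatives and the Ccr9 call under 1. Of 20 cytoskeletal genes, Myo1g and Tuba1a were higher in both comparisons, Myo1e and Actn1 higher than in cDC1-gated cells and Rac2 lower than in cDC2-gated cells. The Actn1 and Rac2 calls were lost under 3 alternatives each, and the Myo1e call and both Tuba1a calls under 1 each. The medians were 0.10 and 0.30.

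**Figure D3:**
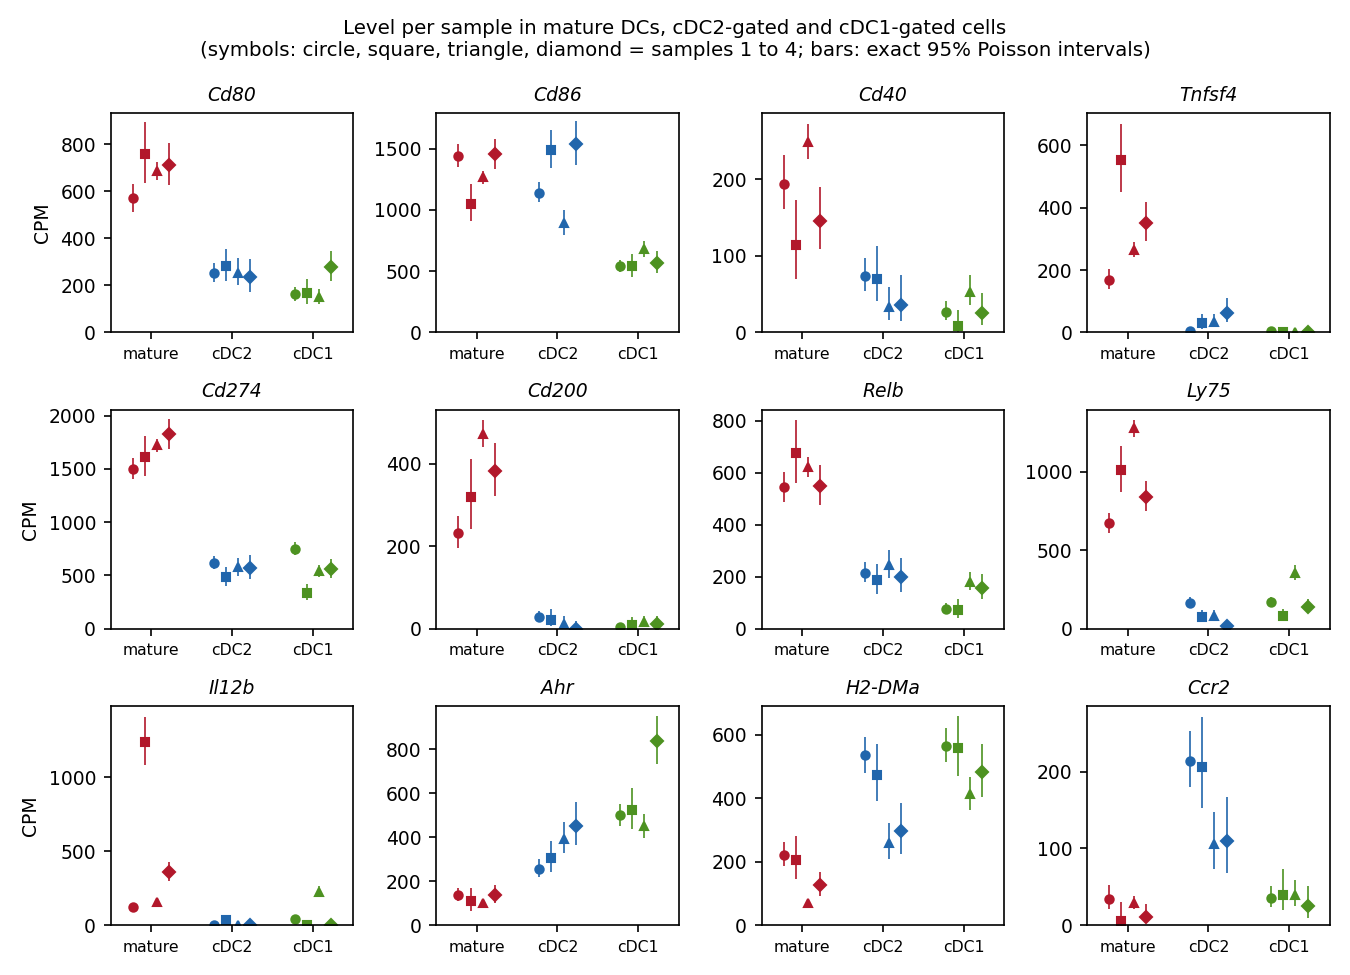
Level in CPM (vertical axes, each from 0) of 12 genes in mature DCs, cDC2-gated and cDC1-gated cells. Symbols are the 4 samples and bars are exact 95% Poisson intervals of the summed UMIs. Cd80 and Cd274 lie above both gates and Ahr and H2-DMa below them in the mature DCs of every sample, while Cd86 overlaps between mature DCs and cDC2-gated cells.

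The list of the NF-kB pathway, which drives DC maturation, had 6 of 23 genes higher than in cDC2-gated cells and 9 higher than in cDC1-gated cells, with none lower. Icosl, also counted above among the costimulatory genes, is 1 of the 9. Its call was lost under 3 alternatives and without the cell that held most. Median log2 ratios were 0.48 and 1.19. Relb, the subunit of its non-canonical arm, was at 544, 675, 622 and 549 CPM against 216, 186, 245 and 197 CPM in cDC2-gated and 77.7, 71.9, 181 and 156 CPM in cDC1-gated cells. Traf3 and Birc2, which restrain that arm, and the survival genes Cflar and Bcl2a1b were higher in both comparisons, though against cDC2-gated cells the Cflar call was lost under 4 alternatives and the Traf3 call under 1. Bcl2a1d was called against cDC2-gated cells, and it belongs to a family of near-identical genes between which reads can be split. Nfkb1 was at 1494, 1070, 1699 and 2298 CPM and was not called. Of 25 transcription factors, 3 were higher than in cDC2-gated cells, Irf8 and Ikzf4 among them, with a median log2 ratio of 0.27. Of 24 tested against cDC1-gated cells, 7 were higher, among them Irf4, Irf1, Stat3, Stat4, Stat5a and Ikzf4, and Nr4a1 was lower, with a median of 0.96. The Nr4a1 call was lost under 3 alternatives, the Irf1 call under 2, the Stat5a call under 1 and both Ikzf4 calls under 1 each. Irf8, a factor of the cDC1 lineage, stood at 582, 665, 350 and 228 CPM, against 256, 157, 106 and 67.6 CPM in cDC2-gated and 567, 456, 193 and 184 CPM in cDC1-gated cells, from which it was not called different. The call was lost with at least 50 MHC class II UMIs. Irf4, a factor of cDC2 and of migration, was at 31.4, 86.5, 55.2 and 112 CPM. It was higher than in cDC1-gated cells and not called against cDC2-gated cells.

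Traces of the lineage genes were sparse. At least 1 UMI of the cDC1 genes Xcr1 or Clec9a alone was found in 16 mature DCs, of the cDC2 genes Cd209a, Mgl2 or Clec10a alone in 26, of both in 3 and of neither in 176. The cells could therefore not be divided by origin from these genes.

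Genes of antigen uptake were mixed. Ly75, the endocytic receptor DEC-205, was at 674, 1010, 1276 and 843 CPM, against 165, 74.3, 81.7 and 15.6 CPM in cDC2-gated and 168, 79.9, 358 and 138 CPM in cDC1-gated cells. It was the 1 of 15 uptake and pattern receptor genes called higher than in cDC2-gated cells. Mrc1 (mannose receptor), Fcer1g (the signalling chain of Fc receptors) and Itgam (CD11b) were lower, and the median was -0.94 on the log2 scale. The Fcer1g call was lost under 4 alternatives and the Mrc1 call under 1. Against cDC1-gated cells Tlr1 and Ly75 were higher and Tlr3 and Cd36 lower of 16 tested, with a median of 0.065, and the Tlr1 call was lost under 3 alternatives and the Tlr3 and Cd36 calls under 1 each. Among 24 presentation genes outside the selection, Nlrc5, the transactivator of MHC class I genes, and the lipid-presenting Cd1d1 were higher in both comparisons, beside 3.53% and 5.03% of all genes. H2-DMa and H2-DMb1, whose product loads peptide on MHC class II, were lower in both, and H2-Ob was lower than in cDC1-gated cells. Against cDC2-gated cells the Nlrc5 and H2-DMa calls were lost under 2 alternatives each and the Cd1d1 call under 1. Against cDC1-gated cells the H2-Ob call was lost under 2. Medians over the presentation list were 0.26 and 0.22. H2-DMa was at 221, 205, 70.2 and 126 CPM against 535, 475, 260 and 296 CPM in cDC2-gated cells. Itgax, which encodes CD11c, was at 42.3, 10.8, 10.6 and 41.2 CPM, lower than the 110, 103, 66.6 and 140 CPM of cDC2-gated cells. In sample 3, 56 of 132 mature DCs held under 50 MHC class II UMIs, against 6 of 42, 2 of 20 and 7 of 27 in samples 1, 2 and 4.

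Ahr itself, the gene that the study deleted, was lower than in cDC1-gated cells. It was at 136 CPM (95% Poisson interval 109 to 168), 108 CPM (66.0 to 167), 99.2 CPM (85.1 to 115) and 137 CPM (102 to 181) in samples 1 to 4. In cDC1-gated cells it was at 500, 523, 448 and 837 CPM, and the log2 ratios of -2.57 to -1.83 made a call. In cDC2-gated cells it was at 256, 305, 393 and 452 CPM, also above the mature DCs in each sample, but the ratio in sample 1 missed 2-fold. An Ahr UMI was found in 44.8% of mature DCs, 79.1% of cDC2-gated, 86.1% of cDC1-gated and 17.3% of neutrophil-gated cells, and in 24.2%, 51.3%, 64.0% and 8.30% after thinning to 3000 UMIs. No genotype was read from these levels. Of the 6 retinoid and AhR genes tested, none was called higher, and medians were -0.48 against cDC2-gated and -1.15 against cDC1-gated cells. Aldh1a2, the retinoic acid enzyme of gut DCs that imprint homing, was at 4.70, 0, 13.4 and 60.4 CPM, with 18 of the 22 UMIs of sample 4 in 1 cell and 11.8 CPM there without it. The AhR targets Ahrr, Cyp1a1, Cyp1b1 and Nqo1 fell below the limit for testing. Tiparp, another AhR target, and Odc1, whose transcription the study reports to be promoted by AhR, were tested and called in neither comparison.

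No gene of the glycolysis and lipid, cell cycle or heat shock lists was called, out of 18, 4 and 10 tested against cDC2-gated cells and 18, 7 and 11 against cDC1-gated cells. Over all genes 3.53% were higher and 1.98% lower than in cDC2-gated cells, so that a count of 0 in lists of this size is near the background. Their medians against cDC2-gated cells were -0.40, 0.67 and -0.20, and against cDC1-gated cells -0.22, -0.74 and -0.29.

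Among the genes lower in mature DCs, those whose weakest sample still differed most from cDC2-gated cells were Tex2, Ank (a pyrophosphate transporter), Itgb7 and Cfp (properdin of the complement system). The Tex2 call was lost with at least 50 MHC class II UMIs. Cfp was at 34.5, 10.8, 24.0 and 63.1 CPM against 241, 281, 151 and 312 CPM. Against cDC1-gated cells they were Cadm1, a cDC1 adhesion molecule, and the lysosomal enzymes Ppt1 and Naaa. Cadm1 was at 4.70, 0, 19.5 and 0 CPM against 608, 647, 529 and 904 CPM. Zfp36l2, which binds and destabilises mRNA, and Tm6sf1 and Plbd1 were lower in both comparisons.

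Some genes varied between the mature DCs of different samples, in several cases through 1 cell. Of the 8 genes with the widest range among those passing a limit of 50 CPM, 3 are stimulated by interferon and were highest in sample 1. Rsad2 was at 602, 5.40, 38.4 and 156 CPM in samples 1 to 4, Ifit1 at 274, 0, 9.47 and 10.98 CPM and Cxcl10 at 886, 5.40, 13.4 and 10.98 CPM. The same cell, with 25531 UMIs, held 93.2% of the Rsad2, 91.4% of the Ifit1 and 74.3% of the Cxcl10 UMIs of sample 1, and without it the levels were 42.5, 24.5 and 237 CPM. In sample 4, 77.2% of the Rsad2 UMIs were in 1 cell, with 36.5 CPM left without it. Cxcl9, a ligand of CXCR3, had UMIs in 24 of 42 mature DCs of sample 1 and in 9.04% of the neutrophil-gated cells there, or 40.5% and 6.37% after thinning to 3000 UMIs, and stood at 549, 16.2, 42.3 and 19.2 CPM. Gbp2, an interferon-induced GTPase, was at 622 CPM in sample 1 and 97.3, 179 and 126 CPM in the others. In the interferon response list, none of 15 genes was called against cDC2-gated cells, while Isg15 was higher and Ifi205 lower of 14 tested against cDC1-gated cells, with medians of 0.605 and 1.07. Single cells held 60.1%, 82.4% and 46.8% of the Isg15 UMIs in samples 1, 2 and 4.

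Tmem267 was at 50.2, 0, 31.8 and 675 CPM, and 1 cell of sample 4 held 93.9% of that sample's UMIs, with 45.0 CPM left without it. In sample 1 a single cell held 62.5%, with 19.2 CPM left. The cell of sample 4 was the cell that also held most of the S100a9, 66.7% of the Acod1 and 77.1% of the Chil3 UMIs there, and its doublet score was not among the highest. Saa3, an acute-phase protein, was at 125, 5.40, 620 and 1375 CPM, with UMIs in 87 of 132 cells of sample 3 and 13 of 27 of sample 4. Another cell of sample 4 held 64.5% of the Saa3 UMIs, and the level was 504 CPM without it. In cDC1-gated cells Saa3 stood at 17.8, 24.0, 610 and 1763 CPM, high in the same samples. Chil3 was at 98.8, 5.40, 436 and 516 CPM and Cxcl1, a neutrophil chemokine, at 26.7, 0, 206 and 54.9 CPM. Without the cell that held most, Chil3 in sample 4 was at 129 CPM, and Cxcl1 was at 132 CPM in sample 3 and 32.4 CPM in sample 4. The cell with most Cxcl1 in sample 3 had a high doublet score and also held most Il6 there. Acod1, the itaconate enzyme, was at 393, 0, 201 and 288 CPM. It was at 105 CPM in sample 4 without the cell named above, and at 246 CPM in sample 1 without a cell of high doublet score that held 40.6% of its UMIs. All of these were lowest in sample 2, which under the selection used had the fewest mature DCs and the smallest sum of UMIs, 185066 against 364310 to 1794961. With 1 UMI of an excluded gene allowed, sample 4 had fewer mature DCs than sample 2.

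**Figure D4:**
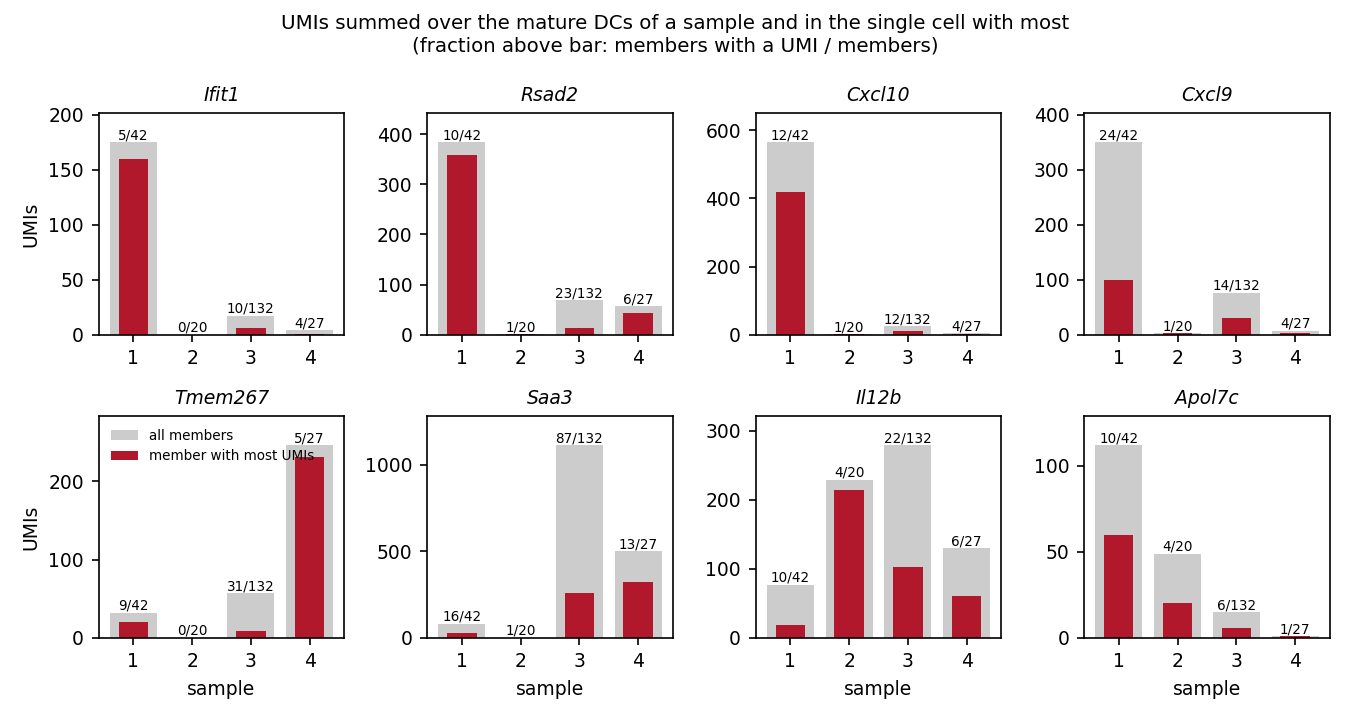
UMIs (vertical axes, each from 0) of 8 genes summed over the mature DCs of each sample (grey) and in the single cell with most (red). The fraction above a bar gives the cells with a UMI out of the mature DCs. A single cell holds nearly all Ifit1 and Rsad2 UMIs of sample 1, Tmem267 of sample 4 and Il12b of sample 2, while Cxcl9 UMIs of sample 1 lie in 24 of 42 cells.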

How the data were processed

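Counts of unique molecular identifiers per gene and cell barcode were deposited by the authors as 1 filtered matrix per sample, holding 32285 genes and 45229 cells, with no normalization. Per the labels the reads were processed with Cell Ranger 5.0.0 and STAR on mm10, whereas the matrix headers name Cell Ranger 7.0.1. UMIs were summed per sample and class and divided by the class total (CPM). Genes with a mean of at least 10 CPM in either class were compared, without a test, by a 2-fold limit on CPM plus 5 in each sample. On simulated counts with 200 genes changed 4-fold against cDC2-gated cells, over 7566 genes tested, 165 were recovered and 0 others called. The 4-fold setting lies above the 2-fold limit used for calls. Smaller differences and the comparison with cDC1-gated cells were not tested in this way. The share of wrong calls in the measured data was not tested. Doublets were scored with Scrublet (scanpy 1.11.5), the top 0.8% per 1000 cells were called high, and they were kept. Intervals were computed with scipy 1.17.1. Kept cells numbered 10986, 13223, 11164 and 8059.

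The members and lists were chosen with earlier results of these data known. Named genes were those of the lists, the genes whose weakest sample differed most (15 higher and 10 lower than cDC2-gated cells, 10 and 10 against cDC1-gated cells), the 8 genes with the largest range between samples, and markers of other cells. The range was ranked among genes that passed a limit of 50 CPM. Cxcl9 and Gbp2 were added after their values were seen. Promoters came from RefSeq (GRCm38.p6). Symbols absent from the tables, Cd58, Clec7a, Clec6a and Mx1, were not analysed here. Results for some listed genes, and 1 of the gene lists, are not reported here.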

Additional observations from a re-analysis of the deposited data

How the results depend on the processing

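The total of 221 mature DCs ranged from 150 to 288 over changes to the selection. Their share moved beyond its interval in 3 cases. With 1 UMI of the excluded genes allowed, it was 0.303% in sample 2 and 1.44% in sample 3, and with at least 50 MHC class II UMIs it was 0.681% in sample 3. Sample 3 remained the highest under each of the 7 changes to the selection and the cell filters. Counts of higher and lower genes stayed within 1.5 times the reported ones under the changes of selection, scaling, pseudocount and low-value filter. The genes called changed more. With at least 50 MHC class II UMIs, 215 of 278 higher and 97 of 156 lower genes against cDC2-gated cells kept their calls. Against cDC1-gated cells, 337 of 401 and 189 of 244 did. With 1 UMI of the excluded genes allowed, 234 higher and 96 lower genes against cDC2-gated cells kept their calls. Leaving out each sample in turn, an alternative chosen after seeing the data that asks for 2-fold in 3 samples, gave 332 to 378 genes higher and 204 to 251 lower than cDC2-gated cells, and 484 to 531 higher and 297 to 350 lower than cDC1-gated cells. The 251 came without sample 1 and again without sample 4, over 1.5 times the 156 reported. Of the named calls, 65 of 92 against cDC2-gated cells and 85 of 115 against cDC1-gated cells held under every change other than leaving out a sample, where a gene under a stricter low-value filter counts as lost because it was no longer tested. Each ratio was taken within a sample, and no paired test over the 4 samples was run, because the labels put them in no group and the classes were chosen on measured values. Depth limits every level that rests on sample 2, with 20 mature DCs.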
